A study of Mus musculus with 4 samples.

Results

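Interferon-induced and major histocompatibility complex (MHC) class I genes were followed over 4 populations sorted from mouse embryonic stem (ES) cell cultures on the way from endothelium to blood. The 9 genes, Ifitm1, Ifitm2, Ifitm3, Bst2, Irf1, B2m, H2-K1, H2-D1 and Tap1, were chosen by symbol out of 18194 genes with a probe set of their own on an Affymetrix mouse genome array. They were read by 24 probe sets that name 1 of them alone, and 3 more probe sets that H2-K1 or H2-D1 shares with other genes are given apart, out of 45101 in all. ES cells of the Runx1(Venus/+) line, made from CCE ES cells, were grown for 6 days on OP9 cells, a mouse stromal line, with no other treatment. In this line the Venus reporter sits at the proximal promoter of 1 Runx1 allele, so that all 4 populations were heterozygous for it. Population 1 was Runx1-/VE-cadherin+/Flk1+, population 2 was Runx1+/VE-cadherin+/CD41-, population 3 was Runx1+/VE-cadherin+/CD41+ and population 4 was Runx1+/VE-cadherin-/CD41+, where Runx1 stands for the Venus reporter. Each population has 1 array in the data analysed here, and a further sample set of the study on another array type was not analysed here, which leaves differences without a test or a replicate check, and the number of arrays limits the precision. Values are probe set signals, an intensity on a linear scale, and they compare populations for a given probe set but not different genes.

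Interferons are secreted proteins that bind receptors on the cell surface, which act through Jak kinases and Stat and Irf transcription factors to switch on a large group of antiviral genes. Ifitm proteins are small membrane proteins that hinder the entry of viruses, Bst2 (tetherin) holds budding viruses at the cell surface, and Irf1 is a transcription factor of the interferon response. MHC class I molecules show peptides to T cells and natural killer cells and consist of a polymorphic heavy chain, encoded by H2-K1 and H2-D1 among others, and of beta-2 microglobulin (B2m). Tap1 is a subunit of the pump that brings the peptides to them. Early embryonic cells are known for low levels of class I molecules.

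The VE-cadherin transcript Cdh5 was measured at 5683, 3946, 4849 and 40.9 over populations 1 to 4, and Runx1 at 55.3, 358, 1297 and 2440.2. Over 10 endothelial marker genes the summed signal was 29270.3, 20059.9, 24025.9 and 3016 in populations 1 to 4. Erythroid markers had the largest sum in population 4, with 1155, 2339, 6567 and 58141 over 9 genes, of which 1, 2, 6 and 9 had a signal above 100. Leukocyte and myeloid markers summed to 396.5, 489.5, 1849 and 2606 over 10 genes, of which 1, 1, 7 and 8 had a signal above 100. Markers of stromal cells such as OP9 summed to 3239, 1955, 1753 and 1429.9 over 9 genes, of which 4 were above 100 in population 1 and 3 in each other population. Lymphoid and undifferentiated ES cell markers had no signal above 100. In sorted bulk samples, fewer expressing cells and less RNA per cell cannot be told apart. Among the 9468 genes that exceeded 100 in any population, log2 ratios had a median of 0.36 between populations 4 and 1, and of 0.22 between populations 3 and 2.

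All 8 members with a signal above 100 were higher in population 3, which carries VE-cadherin and CD41 together, than in populations 2 and 4. Of all 9468 genes, 37.8% had this pattern. Deposited signals, also those under 100, set these orders of populations. From population 3 to 4, where VE-cadherin is lost, the log2 ratio lay between -2.32 for Bst2 and -0.71 for H2-K1, against a median of 0.06 over all genes. Each of the 4 other scalings of the arrays kept the pattern in all 8 members. The share of all genes was then 22.9% (array median), 24.6% (quantile), 43.4% (hybridisation controls) and 15.8% (poly-A controls). The mean over probe sets kept it in the 7 members it could measure. Of these, only B2m and H2-K1 have more than 1 probe set. Leaving out probe sets ending in _s_at, _x_at and _a_at left Ifitm1, Ifitm2, Ifitm3 and Bst2, with the probe sets they already had. This choice could not change the pattern in these 4. The pattern was chosen after its values were seen. Tap1 stayed under 100 by all 4 of its probe sets, with a highest signal of 38.9, and no ratio is given for it.

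Ifitm1 had signals of 598, 565, 1441 and 518 in populations 1, 2, 3 and 4. It was thus close to level in populations 1, 2 and 4, and population 3 stood out by 2.55-fold over population 2 and 2.78-fold over population 4. Between populations 3 and 2 its log2 ratio was 1.35. Ifitm2 signals were 2248, 2765, 3956 and 2211, the narrowest range of these 3 genes with 1.79-fold between highest and lowest. For Ifitm3, known also as a marker of early germ cells, they were 1872, 1127, 2249 and 482. Ifitm3 differed from its neighbours in population 4, where it lay 3.88-fold below population 1, while the log2 ratio of Ifitm1 was -0.21 and that of Ifitm2 -0.02 in the same comparison. These small values of Ifitm1 and Ifitm2 turned positive, 0.12 and 0.31, when arrays were scaled on hybridisation controls. Each of these genes was read by 1 probe set. The other Ifitm genes, Ifitm5, Ifitm6, Ifitm7 and Ifitm10, had no signal above 100, with a highest value of 83.9.

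Bst2 had signals of 803, 788, 1469.6 and 294 in populations 1 to 4. Populations 1 and 2 differed by a log2 ratio of -0.03, population 3 was 1.86-fold above population 2, and population 4 was 5.01-fold below population 3, the widest step of any member in the deposited values. Irf1 had signals of 244, 208, 286 and 125. Its order of populations was that of Ifitm3, and its step from population 3 to 4 was 2.29-fold, with population 4 the lower.

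**Figure D1:**
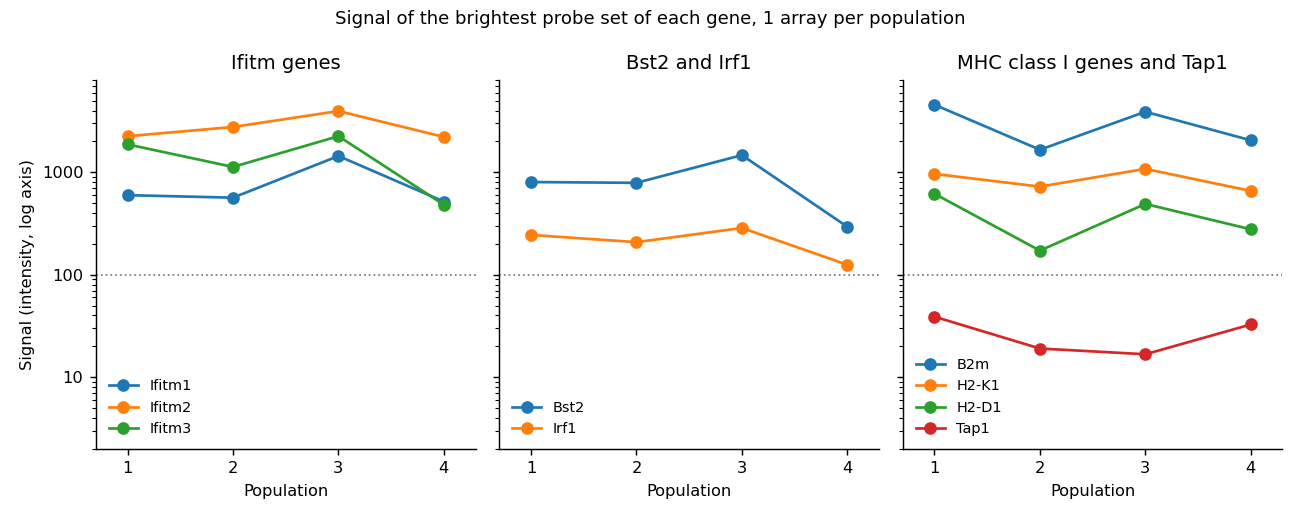
Signal (intensity, log axis) of each member by its brightest probe set in populations 1 to 4, with 1 array per population and so no error bars; the dotted line marks 100. Ifitm1 stands out in population 3 at 1441, B2m is lowest in population 2 at 1659, and Tap1 stays under 100 throughout.

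The light chain gene B2m had signals of 4563, 1659, 3895 and 2049.6 in populations 1 to 4. By its second probe set the values were 3946, 1489, 2947 and 1406. Both probe sets were highest in population 1 and much lower in population 2, and they differed only in whether population 2 or population 4 was lowest. Population 2 was 2.75-fold below population 1, and population 3 was 2.35-fold above population 2.

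For the heavy chain gene H2-D1, the brightest probe set gave 617, 172, 491 and 277, so that population 2 lay 3.59-fold below population 1 and 2.86-fold below population 3. Another of its probe sets, with 604, 157, 451 and 212, followed the same course. One more had 140 in population 1 and lay under 100 in the other populations. The remaining 6 of its 9 probe sets had no signal above 58.1. Log2 profiles of H2-D1 and B2m, each centred on its own mean, differed by a root mean square of 0.16 over the 4 populations, and of all 9467 other genes B2m was the one with the profile most like that of H2-D1.

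H2-K1 gave different pictures by different probe sets. The brightest one had 963, 724, 1079 and 657, a range of only 1.64-fold. A dimmer one, with 125, 112, 163 and 109, was as flat. Yet another, with 502, 129, 407 and 212, had the order of the H2-D1 probe sets, and the last had no signal above 39.1. All 4 end in _x_at, the suffix for probes that can also bind other transcripts, as do 7 of the 9 H2-D1 probe sets, so which heavy chain gave which signal is uncertain. The fit of these probe sets to the class I alleles of CCE cells was not tested either, and flat and dipping signals are given as measured. The probe set assigned to H2-K1 and H2-D1 together had 104, 72.8, 124 and 70.4. Of the other shared probe sets, that of H2-Q5 and H2-K1 had no signal above 14.9, and that of Gm38417, H2-Q2 and H2-D1 none above 8.16.

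**Figure D2:**
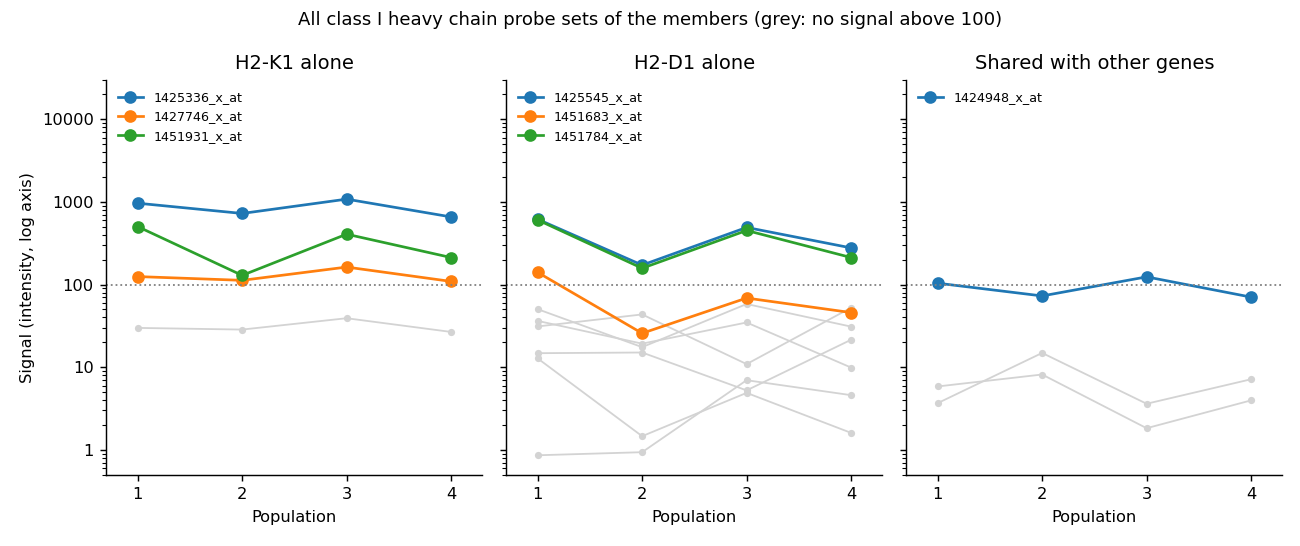
Signal (intensity, log axis) of every probe set of H2-K1, H2-D1 and the genes they share probe sets with, in populations 1 to 4 with 1 array each; coloured lines have a signal above 100 (dotted line) in at least 1 population. All 3 coloured H2-D1 lines and 1 of H2-K1 are lowest in population 2, while the brightest H2-K1 line ranges only from 657 to 1079.

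Short stretches of the promoters are shown because they hold the letters through which interferon-activated factors are known to act. RefSeq windows of 250 bases before to 50 bases after the gene start (build GRCm38.p6) were found for all 9 members and searched on both strands. The interferon-stimulated response element, searched as GAAA, any 2 bases and GAAA again, was present in the windows of 4 members, Ifitm2, Ifitm3, Bst2 and B2m, and in 3.44% of 32851 windows of all genes. Capitals mark the matched letters, and each sequence is written 5′ to 3′ along the gene. Counted from the gene start, the match in Ifitm2 covered bases -46 to -37, that in B2m -139 to -130, the 2 overlapping matches in Bst2 -130 to -115, and the 2 matches in Ifitm3 bases 3 to 29.
Ifitm2, chr7:140955988-140956016, minus strand: caccaacagGAAAAGGAAAttgctagaga
Ifitm3, chr7:141010715-141010743, minus strand: gGAAAAGGAAActtctgaGAAACCGAAAc
Bst2, chr8:71537580-71537608, minus strand: ttccagGAAAATGAAACTGAAAggctgca
B2m, chr2:122147539-122147567, plus strand: taagaacatGAAACTGAAAatgggaaagt

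The first match of Ifitm3 has the same letters as that of Ifitm2, and Ifitm3 ranged 4.67-fold and Ifitm2 1.79-fold over the populations. The gamma-activated site, searched as TTCNNNGAA, was present in 3 members, Irf1, Ifitm3 and Bst2, and in 8.30% of all windows. In Ifitm3 and Bst2 it overlaps a response element match, and Irf1 has it in 1 of its 2 windows. The heavy chain genes H2-K1 and H2-D1 had no match to either of these exact searches, and looser forms of the 2 elements were not searched. Both genes held the kappa B letters capitalised in the last 2 sequences here. These were searched as 1 exact sequence of 11 letters, and other kappa B forms were not searched. They were present in 10 windows, or 0.0304% of all, among them both windows of H2-K1 and the 1 window of H2-D1. That share thus includes these genes themselves and is not read as enrichment. The Runx letters TGTGGT were in 0 of the 9 members' windows and in 16.8% of all. They are 1 form of the consensus TGYGGT named in the study, where Y is C or T, and the form with C was not searched. The study found most of its Runx1 peaks outside promoters, which these windows do not cover. A match is a description of these letters and not of a bound site. The sequences of the Irf1 site and of the heavy chain stretches around the kappa B letters follow, and the remainder of the promoters was not compared.
Irf1, chr11:53769914-53769942, plus strand: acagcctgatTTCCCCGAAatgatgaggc
H2-K1, chr17:34000439-34000467, minus strand: cccagggctGGGGATTCCCCatctccaca
H2-D1, chr17:35262914-35262942, plus strand: cccagggctGGGGATTCCCCatctcctca

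From population 1 to 2, where the Runx1 reporter appears, 2 of 8 were lower by 2-fold or more, B2m and H2-D1, where 4.19% of all genes were. None of the 8 was higher by that much, where 2.92% of all genes were. The summed stromal signal was also lower, 1955 against 3239, as was the endothelial one, 20059.9 against 29270.3, and their part in the 2 differences was not tested. The stromal sum rests mostly on 2 collagen genes, Col1a2 with 1132 against 1988 and Col3a1 with 334 against 658. Postn was also lower, 44.2 against 118, and Pdgfrb was higher, 271 against 250. The other 5 of its 9 genes were not above 100 in any population. From population 2 to 3, where CD41 appears, 3 of 8 were higher by 2-fold or more, Ifitm1, B2m and H2-D1, against 3.11% of all genes, and 0 were lower, against 0.253%. Ifitm3 lay just under the limit at 1.995-fold. Scaled on hybridisation controls 5 members passed this limit, and scaled on poly-A controls 1 did. The median log2 ratio of all genes moved as well, from 0.22 as deposited to 0.57 and -0.10. The share of all genes that passed the limit is not given for these 2 scales. From population 3 to 4, 4 of 8 were lower by 2-fold or more, Ifitm1, Ifitm3, Bst2 and Irf1, against 12.2% of all genes, and 0 were higher, against 7.94%. In B2m and H2-D1, population 2 lay 2-fold or more below both population 1 and population 3, which held for 0.877% of all genes. The brightest probe sets of 6 of 8 members were highest in population 3, as were those of 26.3% of all genes, and 6 were lowest in population 4, as were those of 27.6%.

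**Figure D3:**
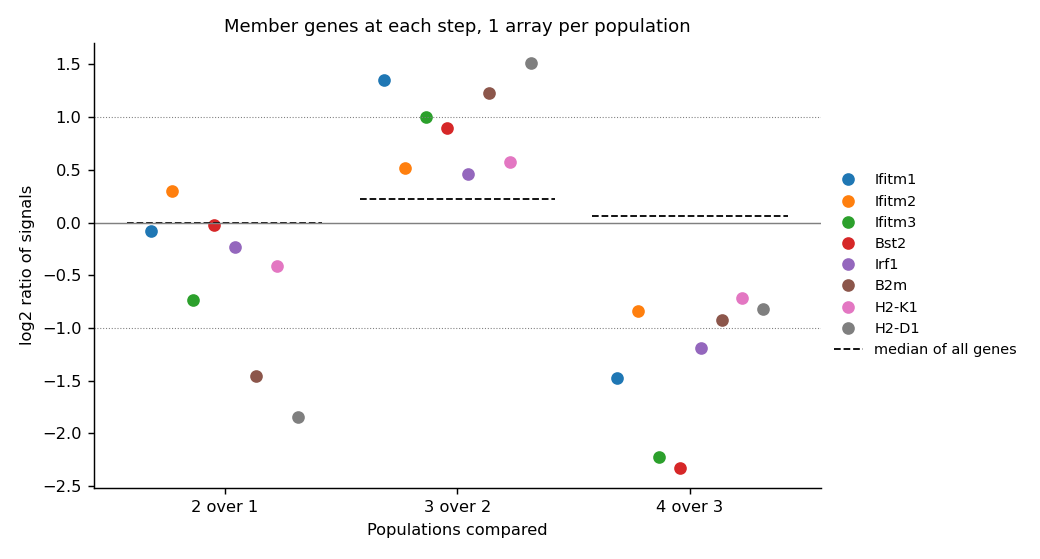
Log2 ratio of signals at each step for the 8 members above 100, 1 array per population, with the median of all 9468 genes as a dashed line and dotted lines at 2-fold. All members lie above the dashed line from population 2 to 3 and below it from population 3 to 4, and B2m and H2-D1 lie lowest from population 1 to 2.

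Between the ends of the series, population 4 was below population 1 by 2-fold or more in 4 of 8 members, Ifitm3, Bst2, B2m and H2-D1, and above it by that much in 0. Among all genes 12.9% were lower and 22.4% higher by that much. With arrays centred on their medians these shares became 16.0% and 14.4%. On the scale of the hybridisation controls they became 10.2% and 34.6%, and 2 members, Ifitm3 and Bst2, remained lower by 2-fold or more. The 8 members had a median log2 ratio of -1.06, beside 0.36 over all genes. Endothelial markers had a median of -3.43 in the same comparison, stromal markers of -0.80 and erythroid markers of 4.58. The part of the cells with these markers in the differences was not tested.

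The genes closest in profile to each member, by the root mean square difference of centred log2 signals over the 4 populations (signals raised to 100), held no other member except B2m, for H2-D1. For Ifitm1 they were Tmem71, Spon1 and Bcl3, but outside population 3 their signals lay under 100, except for Bcl3 with 130.5 in population 1, so that their likeness rests on the raised signals. Gramd1a and Klf9 were closest to Ifitm3, with 0.06 each, followed by Ephb4, which was under 100 in population 4. Of the genes named for Bst2, Zcchc24 stayed above 100 in all populations, with 0.11, while Rin2 and Gpr182 had 52.5 and 23.1 in population 4 and their likeness there rests on the raised signals. Cd151, encoding a tetraspanin, followed Irf1 within 0.02 with signals of 2290.4, 1999.9, 2689 and 1221. B2m had Abca3, St3gal1 and Akap13 as its closest genes, with 0.03, 0.09 and 0.13, of which St3gal1 was at 90.6 in population 2.

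Upstream of the members, 2 receptor chains were lower in population 4. Ifnar1, a chain of the type I interferon receptor, had signals of 799.7, 490.15, 609 and 345, with population 4 lying 2.32-fold below population 1. Ifngr1, a chain of the interferon gamma receptor, had 645, 300.5, 413 and 279.6 and was 2.31-fold lower. The other chains differed less, Ifnar2 with 422, 319.5, 464 and 381, and Ifngr2 with 208, 139.9, 164 and 135. Socs3, an inhibitor of cytokine signalling, had 756, 707, 707 and 24.02, so that population 4 lay at least 7.07-fold below population 3. In the opposite direction, the phosphatase gene Ptpn6, which acts mainly in blood cells, had 69.3, 101, 649 and 687, with population 4 at least 6.87-fold above population 1. Ptpn11, a related phosphatase, was 2.03-fold higher. In all, 2 of the 19 receptor and signalling genes above 100 had population 4 above population 1 by 2-fold or more and 3 had it below, beside 22.4% and 12.9% of all genes. The list had a median log2 ratio of -0.50, beside 0.36 over all genes. With arrays centred on their medians, 1 was higher and 6 were lower, and on the scale of the hybridisation controls 3 were higher and 1 was lower, with Ifnar1 then 1.84-fold and Ifngr1 1.83-fold lower. A further 6 of the 25 with a probe set of their own were not above 100, among them Stat2, Irf7 and Socs1.

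Many other interferon-stimulated genes were at their lowest in population 2. This held for 17 of the 26 genes of this list that exceeded 100, where 25.0% of all genes were lowest there. With arrays centred on their medians it held for 14 of 24, beside 17.4% of all genes. In the deposited values only 10 of the 26 were above 100 in population 2, so that many of these orders rest on signals under 100. From population 1 to 2, 4 of 26 were lower by 2-fold or more and 0 higher, beside 4.19% and 2.92% of all genes. From population 2 to 3, 6 of 26 were higher by that much and 0 lower, beside 3.11% and 0.253% of all genes. Rsad2 (viperin), an antiviral enzyme, had signals of 714, 224, 797 and 108 in populations 1 to 4. Its other probe sets gave 396, 125, 452 and 41.8, and 161, 56.0, 196 and 21.9. Population 2 thus lay below populations 1 and 3 in each of its 3 probe sets, by 3.19-fold and 3.56-fold in the brightest. Population 4 was lower still in all 3, so that Rsad2 is not among the 17 genes. Ifi35 had 544.5, 191, 781 and 979.8, with population 2 lying 2.85-fold below population 1 and 4.09-fold below population 3, and both of its other probe sets were lowest in population 2 too. Xaf1, with 235, 21.8, 72.3 and 31.9, and Gbp3, with 205, 65.3, 97.4 and 25.9, were above 100 in population 1 alone. Xaf1 was lowest in population 2 and Gbp3 in population 4.

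**Figure D4:**
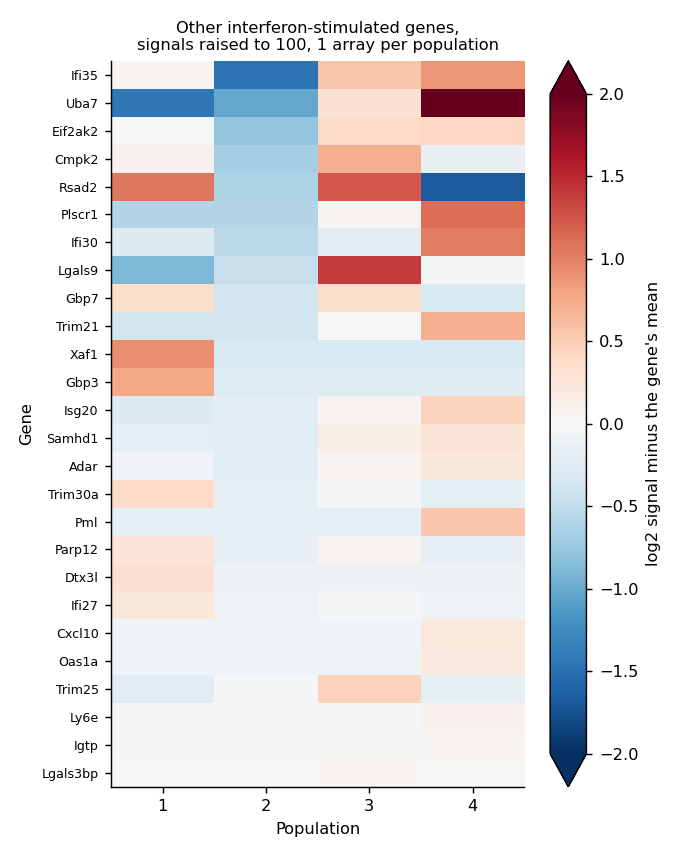
Log2 signal minus the gene's own mean (signals raised to 100) for the 26 other interferon-stimulated genes above 100 in populations 1 to 4, 1 array each, ordered by the value in population 2. Ifi35, Rsad2, Eif2ak2 and Cmpk2 are low in population 2 and higher in populations 1 and 3, while Uba7 and Plscr1 are highest in population 4.

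From population 1 to 4 these genes differed in both directions. Of the 26, 4 were higher by 2-fold or more and 3 lower, shares of 15.4% and 11.5% beside 22.4% and 12.9% of all genes. Uba7, the activating enzyme for the ubiquitin-like protein Isg15, had signals of 120.0, 158, 401 and 1425 and was 11.9-fold higher in population 4. Its other probe sets gave 77.3, 86.4, 148 and 922, and 48.3, 95.8, 132 and 226. Plscr1, a membrane-associated protein, was at least 3.27-fold, the lysosomal reductase gene Ifi30 2.46-fold and the antibody receptor gene Trim21 at least 2.11-fold higher. The other Trim21 probe set, with 47.3, 52.2, 55.5 and 101, barely passed 100 in population 4 and does not bear out this fold. Rsad2 was 6.61-fold, Xaf1 at least 2.35-fold and Gbp3 at least 2.05-fold lower. Of the 45 genes of this list with a probe set of their own, 19 stayed under 100 in all 4 populations, among them Ifit1, Ifit2, Ifit3, Mx1, Mx2 and Oas2, while Oas1a and Cxcl10 reached 120.2 and 122 in population 4. Isg15 had no probe set of its own and was not analysed here.

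Of 8 genes of peptide loading and presentation above 100, 2 had population 4 above population 1 by 2-fold or more and 0 had it below, beside 22.4% and 12.9% of all genes. The median log2 ratio was 0.34, beside 0.36 over all genes. In population 2, 4 of the 8 were at their lowest, beside 25.0% of all genes. Deposited signals, also those under 100, set this order, and for Psmb10 it rests on 216 against 224 in population 1. Psmb10, a subunit of the immunoproteasome, had signals of 224, 216, 425 and 643 and was 2.88-fold higher. Rfxap, a subunit of a complex that binds MHC promoters, had 151, 187, 205 and 429.9 and was 2.84-fold higher. Its other probe set gave 66.6, 89.9, 87.8 and 158. The chaperone genes Calr, Canx and Pdia3 differed by less than 2-fold, with Calr at 5536, 6944, 6539 and 5101. Tapbp (tapasin), which links Tap1 to the heavy chain, had 318, 189, 398 and 398, with population 3 lying 2.11-fold above population 2. The other immunoproteasome subunits Psmb8 and Psmb9, the class I activator Nlrc5 and the second pump subunit Tap2 were under 100 in all populations, as was Tap1.

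**Figure D5:**
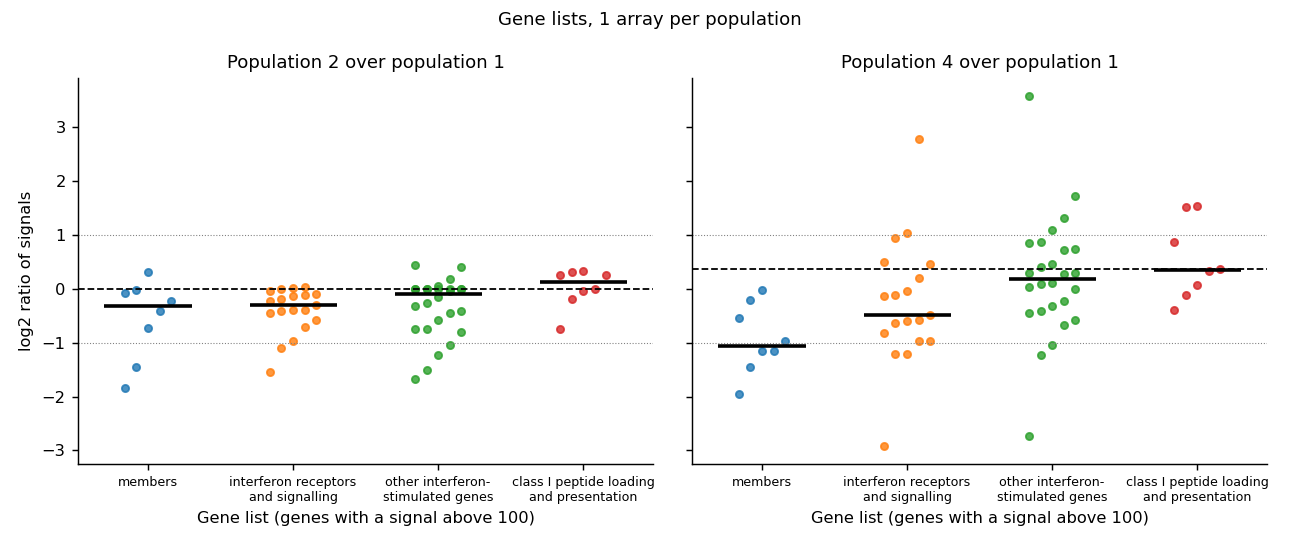
Log2 ratio of signals for the members and 3 related lists, each point a gene with a signal above 100 on 1 array per population, with list medians as bars and the median of all 9468 genes as a dashed line. In population 4 over 1 the members have a median of -1.06 and the peptide loading genes of 0.34.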

How the data were processed

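RNA of 4 sorted populations, 1 sample each, was biotin-labelled with the 3'IVT Express kit and hybridised to Affymetrix mouse genome arrays. Signals deposited by the authors are linear intensity values, 1 per probe set. MAS5 and GCOS 1.3 are named in the submitters' processing notes, and how arrays were scaled to each other is not given in the sources used here. Grouping followed the sort labels.

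Symbols came from the array annotation, updated through gene records of assembly GRCm38.p6. Where several probe sets named a gene alone, the one brightest on average over the log2 signals stood for it. Of 221 names on the gene lists, 194 had such a probe set, and the others were not analysed here. Ratios used signals raised to 100, so that a fold against a lower signal is a lower bound ("at least"), and folds of 2 or more were counted among genes that exceeded 100 in any population. Named genes are all members, list genes at least 2-fold different between populations 4 and 1 with 200 or more in 1 of them, and the 3 closest profiles of each member that ranged at least 2-fold. Ifnar2, Ifngr2, Ifi35, Tapbp, Calr, Canx, Pdia3, the genes named as under 100 and the shared H2-T probe sets were chosen after their values were seen. Members and lists were chosen with earlier results of these data known. Alternatives were other scalings (array median, quantile, hybridisation and poly-A controls), probe sets, floors (50, 200) and a fold of 1.5. Between probe sets of a gene, the median absolute difference of the log2 ratio of population 4 over 1 was 0.22 (4495 pairs). The steps were tested on simulated data. Python 3.11.15, pandas 2.3.3, numpy 2.4.6 and matplotlib 3.10.9 were used. Other assays of the study were not analysed here.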

Additional observations from a re-analysis of the deposited data

How the results depend on the processing

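With 1 array per population no error can be given, and no replicate could be left out. No paired analysis was possible because each population has 1 array. Of 236 alternative values of the 32 member ratios, 232 kept their sign, and the 4 that did not had a ratio of 0.21 or less in size. Many of these values could not differ from the main one. The floor of 50 lies under every signal that stood for the 8 members. Ifitm1, Ifitm2, Ifitm3, Bst2 and Irf1 have 1 probe set each, so averaging over probe sets left them as they were. Within 0.22 of the main value, the median difference between probe sets of a gene, lay 179 of the 236. The median log2 ratio of all genes between populations 4 and 1, 0.36 as deposited, was 0.10 with arrays centred on their medians, 0.12 after quantile normalisation, 0.65 on hybridisation controls and 0.30 on poly-A controls. Between populations 4 and 1, receptor and signalling genes at least 2-fold higher and lower were 2 and 3, and became 1 and 6 after centring on the array median and after quantile normalisation, and 1 and 5 when scaled on poly-A controls. Among all genes the shares higher and lower were 14.4% and 16.0% after centring, 15.1% and 15.6% after quantile normalisation, and 20.2% and 13.5% on poly-A controls. With hybridisation controls 1 receptor gene and 2 members were lower, and 5 members were higher from population 2 to 3, where poly-A controls gave 1. In that step the median log2 ratio of all genes was 0.57 on hybridisation controls and -0.10 on poly-A controls. The mean over probe sets left 1 member lower from population 1 to 2. By this mean 2 of 21 other interferon-stimulated genes were higher in population 4 than in 1, beside 19.7% of all genes. In population 2, 11 of the 21 were lowest, beside 25.6% of all genes. Leaving out probe sets ending in _s_at, _x_at and _a_at left 4 members to measure, all 4 higher in population 3 than in 2 and 4. Their probe sets were the ones used before, so their values could not differ. Of these 4 members, 2 were lower from population 1 to 4, 0 from population 1 to 2, and 1 was higher from population 2 to 3. With signals raised to 50, 7 of 26 other interferon-stimulated genes were higher in population 4 than in 1, beside 26.5% of all genes. Raised to 200, 2 were higher and 1 was lower, beside 17.1% and 9.56% of all genes. At a fold of 1.5, 8 receptor genes were lower in population 4 than in 1, and 8 other interferon-stimulated genes were higher and 5 lower. Among all genes 39.6% were higher and 18.3% lower by that fold. In the single steps, 5 members were higher from population 2 to 3 and 8 lower from population 3 to 4. Shares of all genes at this fold are not given for these steps, so these 2 counts cannot be set against all genes. Fewer genes measured account for the lower counts where probe sets were left out, and the cause of the other differences was not tested. Counts of genes highest in population 3 or lowest in population 2 were chosen after seeing the data. So was the count of genes higher in population 3 than in populations 2 and 4.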

Other observations

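Other class I and class I-like transcripts varied in their course, with Cd1d1, which presents lipids, at 161, 79.7, 172 and 144 in populations 1 to 4. A probe set shared by H2-T23, which encodes a ligand of natural killer cell receptors, and H2-T-ps had signals of 71.7, 105, 195 and 381 in populations 1 to 4, which puts population 4 at least 3.81-fold above population 1. Another probe set of the same pair had no signal above 14.6. The probe set shared by H2-T9, H2-T22 and H2-T10 had 207, 185, 270.2 and 303. Procr, an endothelial receptor with a fold like that of class I molecules, had 583, 541, 859.6 and 38.2.

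Of the genes listed as sensors of foreign RNA and DNA or their partners, 10 of 15 were not above 100, and the highest signal was 2173. Of all 18194 genes, 9468 exceeded 100 in any population. Mavs, the adaptor of the RNA sensors, had signals of 39.7, 48.6, 63.4 and 589, and its other probe set gave 41.4, 46.5, 38.2 and 173. Among MHC class II genes, H2-Ab1 was the only one above 100 out of 8, with 104, 111, 160.2 and 229. Cd74, which accompanies class II molecules, had no signal above 45.4.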
